A study of Mus musculus with 2 samples.

Results

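The DNAJ or HSP40 proteins are the co-chaperones that drive HSP70, and their transcripts were followed in CD4+ T cells sorted from mouse spleen. Members were all gene symbols of the deposited tables that begin with Dnaja, Dnajb or Dnajc followed by a digit, which gave 45 of 24346 symbols: 4 of class A, 13 of class B and 28 of class C. RNA sequencing was done on 2 libraries, both from day 14 and both from animals labelled HFD-MI. The animals of the probucol library received probucol, an antioxidant drug that lowers cholesterol, and those of the other library were untreated. The labels give no strain, genotype, age, dose or number of animals per library, and the word HypoE in the file headers of both libraries is not explained in them. Levels are in FPKM, fragments per kilobase of transcript, normalised to the size of the library. With 1 library per group there was no replicate spread and no p-value, and every difference below is between these libraries.

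HSP70 proteins bind and release unfolded stretches of other proteins in a cycle powered by ATP. A DNAJ protein carries a J domain that stimulates the ATPase of HSP70, and often hands over the client protein as well. Classes A and B resemble the bacterial DnaJ protein, class B without its zinc-binding region, and many of them deliver clients in the cytosol. Class C proteins share little beyond the J domain, and many recruit HSP70 to a particular place or task, such as the ribosome, the import channel of mitochondria or the coat of a vesicle. Some cytosolic members are induced by heat through the factor HSF1, and some members of the endoplasmic reticulum (ER) by the unfolded protein response.

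Promoter sequence is shown for the 7 members that hold the exact letters of a paired heat shock unit or of the ER stress response element within 250 bases before an annotated start, whichever way their levels went. Each line gives the last 150 bases before that start, or 250 for Dnajc10 and Dnajc27, whose pair lies farther away, from RefSeq (GRCm38.p6, the assembly of mm10), 5′ to 3′ on the strand of the gene. Capitals mark GAANNTTC or TTCNNGAA, the pairs of inverted units that HSF1 can bind, in all lines but that of Dnajc3, and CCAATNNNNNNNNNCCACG, the ER stress response element, in the last.
Dnaja1, chr4:40722318-40722467, plus strand: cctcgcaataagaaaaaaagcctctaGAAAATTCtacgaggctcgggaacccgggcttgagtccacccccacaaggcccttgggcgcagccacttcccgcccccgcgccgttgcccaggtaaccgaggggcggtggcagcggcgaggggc
Dnaja4, chr9:54699409-54699558, plus strand: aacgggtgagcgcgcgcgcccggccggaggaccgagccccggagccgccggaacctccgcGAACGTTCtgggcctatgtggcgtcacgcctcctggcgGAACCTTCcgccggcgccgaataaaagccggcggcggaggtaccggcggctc
Dnajb4, chr3:152193846-152193995, minus strand: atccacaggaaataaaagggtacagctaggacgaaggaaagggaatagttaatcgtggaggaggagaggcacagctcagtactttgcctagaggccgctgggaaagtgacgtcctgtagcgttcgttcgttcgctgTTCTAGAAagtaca
Dnajb6, chr5:29735748-29735897, plus strand: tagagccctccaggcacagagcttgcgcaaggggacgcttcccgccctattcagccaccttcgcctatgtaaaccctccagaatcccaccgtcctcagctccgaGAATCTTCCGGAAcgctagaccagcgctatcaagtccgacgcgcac
Dnajc10, chr2:80315216-80315465, plus strand: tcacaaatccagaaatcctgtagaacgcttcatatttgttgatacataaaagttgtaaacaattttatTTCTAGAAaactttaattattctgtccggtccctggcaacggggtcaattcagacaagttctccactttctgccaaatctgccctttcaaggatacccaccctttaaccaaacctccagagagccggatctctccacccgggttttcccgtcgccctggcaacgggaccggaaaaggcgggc
Dnajc27, chr12:4082324-4082573, plus strand: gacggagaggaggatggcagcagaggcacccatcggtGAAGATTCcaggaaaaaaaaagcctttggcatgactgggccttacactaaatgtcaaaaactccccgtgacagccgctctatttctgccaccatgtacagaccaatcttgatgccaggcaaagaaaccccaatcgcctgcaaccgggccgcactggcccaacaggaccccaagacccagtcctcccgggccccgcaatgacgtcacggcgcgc
Dnajc3, chr14:118937782-118937931, plus strand: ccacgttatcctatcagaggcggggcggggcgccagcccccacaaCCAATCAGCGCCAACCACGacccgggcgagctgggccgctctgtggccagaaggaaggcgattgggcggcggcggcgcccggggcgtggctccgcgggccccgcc

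From steps in the low FPKM values, an estimated 9.71e+06 fragments lay in genes with probucol and 9.62e+06 untreated. Of the CD4+ T cell markers, Cd4 was at 334 FPKM in the probucol library and 284 FPKM in the untreated library and Cd3e at 478 and 494 FPKM. The 10 B cell markers summed to 64.5 and 22.4 FPKM, with Pax5 listed at 0 in both libraries and Blnk at 0 untreated. The 7 erythroid markers found, of 9 listed, summed to 219 and 865 FPKM, and all 7 were lower with probucol. The 6 neutrophil markers summed to 1030 and 922 FPKM, with S100a8 at 591 and 536 FPKM, and 5 were higher with probucol and 1 lower. The 8 macrophage markers summed to 180 and 174 FPKM, most of it Lyz2, at 125 and 132 FPKM. Of 7 macrophage markers with a mean of 1 FPKM or more, 5 were higher with probucol and 2 lower. The 5 natural killer markers summed to 7.64 and 14.7 FPKM and the 2 CD8 markers to 16.1 and 19.9 FPKM. Natural killer markers went both ways: of 4 with a mean of 1 FPKM or more, 1 was higher with probucol and 3 lower. Ncr1, below that mean, was at 1.04 and 0.0795 FPKM. The part of these other cells in the values below was not tested, and in bulk RNA fewer cells of a type and less RNA per cell cannot be told apart.

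Taken over the family, transcript levels were close, with a few members higher with probucol. The levels of all members summed to 2069 FPKM with probucol against 1852 FPKM untreated, which is a ratio of 1.12. Dnaja1 was 79.7% of that difference: without it the sums were 1629.8 and 1586 FPKM. A mean of 1 FPKM or more over both libraries was reached by 39 members, and log2 ratios for these were taken after 1 was added to each FPKM, which shrinks the ratios of low genes. Of the 39, 23 (59.0%) were higher with probucol and 16 lower, where 52.7% of the 10663 genes that passed the same filter were higher and 47.3% lower. At least 1.5-fold higher on that scale were 5 members (12.8%), against 5.99% of all genes, and 1 (2.56%) was at least 1.5-fold lower, against 5.53%. Dnajb7, among the 5, reached the filter through the probucol library, at 1.95 FPKM against 0.715 FPKM untreated. When the filter was raised to a mean of 5 FPKM, 3 of 32 members were at least 1.5-fold higher, against 4.04% of all genes. At that filter 0 were at least 1.5-fold lower. At least 2-fold higher were 0 members, against 1.62% of all genes, and 0 were 2-fold lower, against 1.98%. The median log2 ratio was 0.15 over the members and 0.02 over all genes. With all 45 members and no filter on level, it was 0.05, with 53.3% of the members higher, and 0.00 over all genes.

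The classes differed in their medians, class A being the highest and class C the lowest. Class A had a median log2 ratio of 0.43, with 4 of 4 members higher. Class B had a median of 0.27, with 8 of 11 measured members higher and 3 lower. Class C had a median of -0.04, with 11 of 24 higher and 13 lower. In sums of FPKM, class A stood at 630.2 and 437 FPKM, class B at 468 and 412 FPKM, and class C at 971 and 1003 FPKM, so that class A made up 30.5% of the family with probucol and 23.6% untreated. The ranges overlapped, from 0.03 to 0.83 in class A, from -0.29 to 0.78 in class B and from -0.70 to 0.67 in class C. The upper end of class B was Dnajb7, which passed the filter through the probucol library. Class A has few members: its median was 0.15 without Dnaja1, and 0.090 without Dnaja1 and Dnaja4, whose exons overlap other genes.

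**Figure D1:**
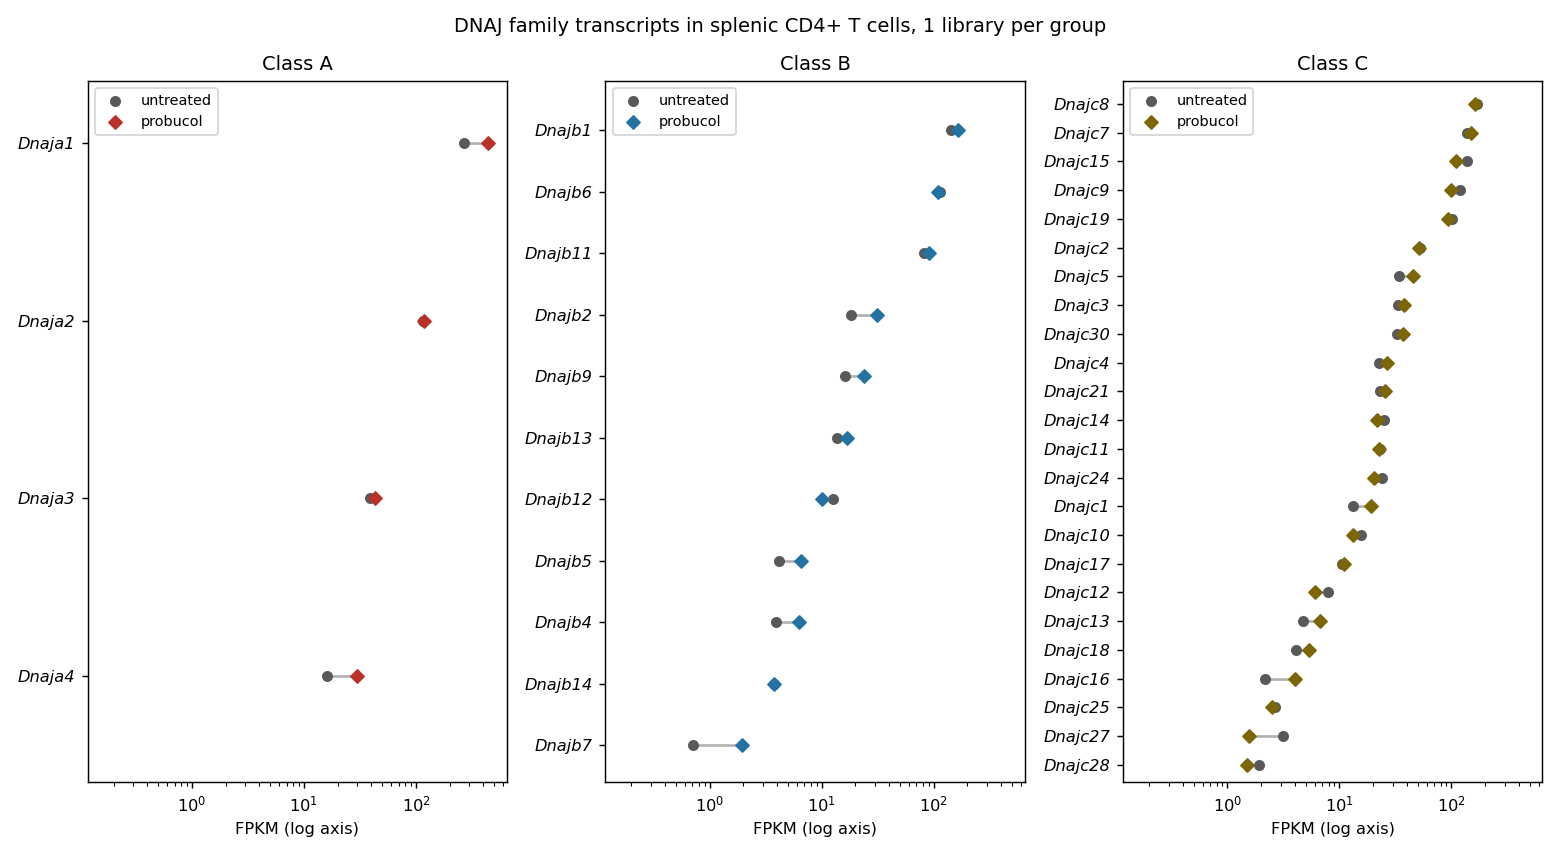
FPKM on a log axis of the 39 measured members, by class and sorted by mean level, with grey circles for the untreated library and coloured diamonds for the probucol library (1 library each). Dnaja1 stood highest in both libraries, at 439 and 266 FPKM, and most pairs of symbols of class C touch or overlap.

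Class A members resemble bacterial DnaJ most closely. Dnaja1 (chromosome 4, 40722150 to 40737149, mm10), which works with the constitutive cytosolic HSC70, was at 439 FPKM in the probucol library and 266 FPKM in the untreated library. It was the most abundant member in both libraries, and was 1.65-fold higher with probucol (95% counting interval 1.61 to 1.69), on about 18897 and 11408 fragments. Each counting interval rests on the estimated number of fragments alone, and any PCR copies among them enter as independent fragments. Noise from PCR copying is therefore left out, and so is variation among animals or among preparations. Dnaja4 (chromosome 9, 54698873 to 54716315), a heat-inducible cytosolic relative, reached 29.5 and 16.2 FPKM and was 1.83-fold higher (1.60 to 2.08). Its log2 ratio of 0.83 on FPKM + 1 was the highest in the family and ranked 262 of the 10663 genes, and that of Dnaja1 ranked 392. The other class A members were nearly level. Dnaja2, the second abundant cytosolic form, reached 118 and 116 FPKM, for a ratio of 1.02 (0.974 to 1.08). Dnaja3, the mitochondrial form, reached 43.4 and 39.1 FPKM and was 1.11-fold higher (1.01 to 1.22). Dnaja1 alone took 21.2% of the family's FPKM with probucol and 14.4% untreated.

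Cytosolic class B members include the classical inducible HSP40. Dnajb1, which encodes it, was at 166 FPKM in the probucol library and 141 FPKM in the untreated library, 1.17-fold higher (1.12 to 1.23), a smaller ratio than that of Dnaja1 or Dnaja4. Dnajb2, whose protein also binds ubiquitin, reached 31.4 and 18.1 FPKM and was 1.73-fold higher (1.49 to 2.01). Dnajb4 was at 6.28 and 3.92 FPKM and Dnajb5 at 6.54 and 4.18 FPKM. Their log2 ratios of 0.57 and 0.54 lay just under the 1.5-fold line on the FPKM + 1 scale, and that of Dnajc16, at 0.67, was the lowest of the 5 members above it. Dnajb6, a suppressor of protein aggregation, did not share this direction. It reached 109 and 115 FPKM, for a ratio of 0.952 with a counting interval from 1.15-fold lower to 1.05-fold higher. Dnajc7, a class C protein that binds both HSP70 and HSP90, reached 149 and 138 FPKM and was 1.08-fold higher (1.03 to 1.14). Of the 9 cytosolic members listed as delivering clients, 8 were higher (88.9%, against 52.7% of all genes) and 1 lower. Past 1.5-fold were 3 (33.3%, against 5.99%). Their median log2 ratio was 0.54 and their summed levels were 1055 and 818 FPKM.

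**Figure D2:**
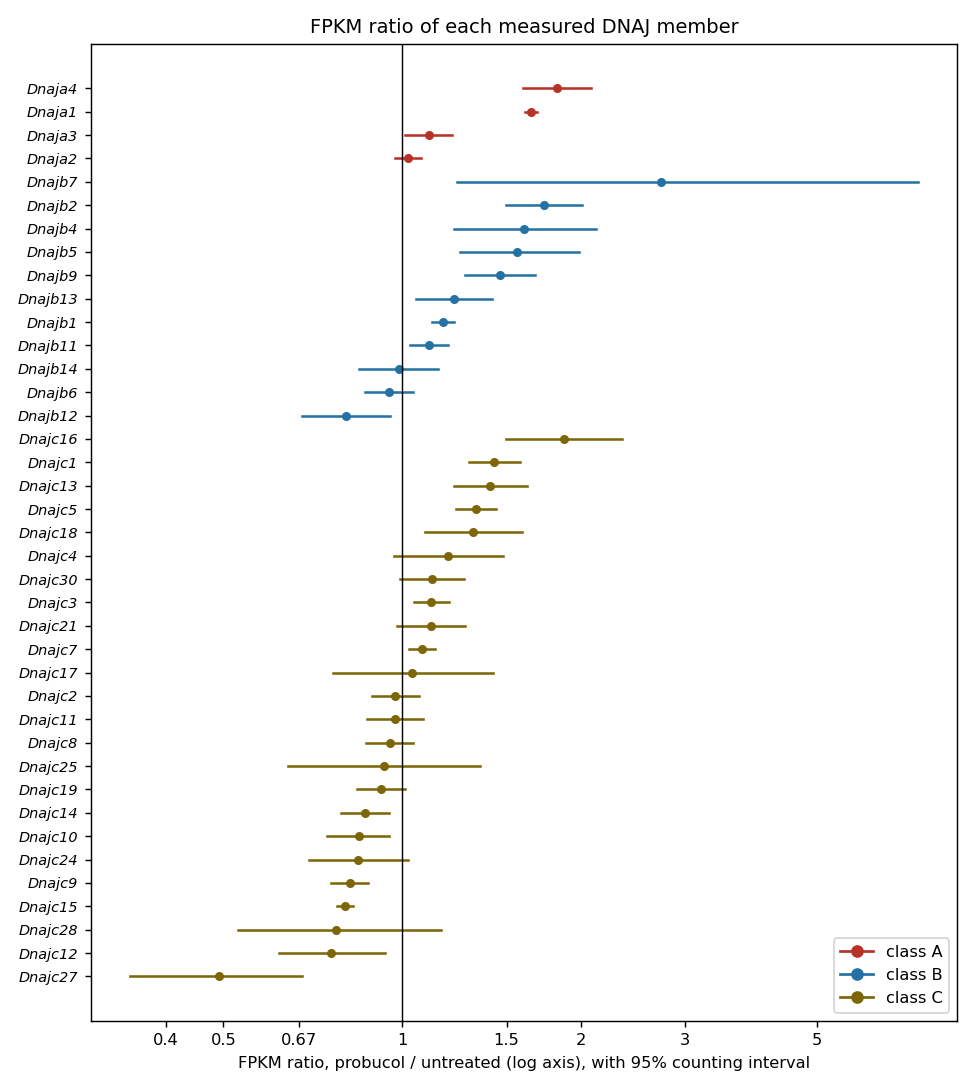
FPKM ratio of probucol over untreated on a log axis for the 39 measured members, with bars for 95% counting intervals and colours for class (1 library each). Dnaja4 and Dnaja1 lie near 1.83 and 1.65, Dnajc27 is the lowest at 0.492, and the interval of Dnajb7 is the widest.

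The interval included a ratio of 1 for 14 of the 39 members, 1 of class A, 2 of class B and 11 of class C. Over all genes with an interval it did so for 48.1%. It lay above 1 for 18 of the members (46.2%), against 28.3% of these genes, and below 1 for 7 (17.9%), against 23.6%. These counts describe what the depth resolves between 2 libraries, not what would recur in other animals.

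ER members had mixed directions, with 6 of 11 higher and 5 lower and a median log2 ratio of 0.15. Inside the ER they assist the HSP70 called BiP, and several sit in the ER membrane with the J domain facing the cytosol. Dnajb11, an abundant lumenal form, was at 91.6 FPKM in the probucol library and 82.5 FPKM in the untreated library, 1.11-fold higher (1.03 to 1.19). Dnajb9, which assists in ER-associated degradation, was at 23.7 and 16.2 FPKM. Dnajc1, a membrane protein of the ER, reached 19.0 and 13.3 FPKM and was 1.43-fold higher (1.30 to 1.58). Dnajc16 (chromosome 4, 141760189 to 141790931) reached 4.03 and 2.16 FPKM and was 1.87-fold higher (1.497 to 2.34), on about 233 and 124 fragments. It was the single ER member past 1.5-fold. Dnajc3, also known as an inhibitor of stress kinases, was at 37.4 and 33.4 FPKM, and Dnajc18 at 5.38 and 4.09 FPKM. Lower with probucol were the membrane protein Dnajb12, at 10.1 and 12.6 FPKM, 1.24-fold (1.05 to 1.48), the disulfide reductase Dnajc10, at 13.2 and 15.7 FPKM, and Dnajc14, at 21.5 and 24.8 FPKM. Dnajb14, at 3.72 and 3.77 FPKM, and Dnajc25, at 2.48 and 2.65 FPKM, were almost equal between the libraries.

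Mitochondrial members were close to level, with 3 of 7 higher and 4 lower, a median log2 ratio of -0.04 and 0 past 1.5-fold in either direction. Summed, they stood at 334 FPKM in the probucol library and 358 FPKM in the untreated library. Dnajc15, an inner membrane protein known to restrain the respiratory chain, reached 110.1 and 137 FPKM and was 1.25-fold lower (1.21 to 1.29). Dnajc19, part of the motor that imports proteins into the matrix, was at 93.3 and 101 FPKM. Dnajc30 was at 36.9 and 32.8 FPKM, Dnajc4 at 26.8 and 22.4 FPKM, Dnajc11 at 22.5 and 23.2 FPKM, and Dnajc28 at 1.49 and 1.93 FPKM. Their HSP70 partner in the matrix, Hspa9, reached 121 and 123 FPKM, for a ratio of 0.985 (0.940 to 1.03), and Grpel1, its nucleotide exchange factor, was at 40.6 and 37.1 FPKM. Both were close to equal between the libraries.

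Members dedicated to a single task were also mixed, with 4 of 9 measured higher and 5 lower and a median log2 ratio of -0.04. Dnajc8, a splicing protein and the most abundant class C member, was at 162 FPKM in the probucol library and 170 FPKM in the untreated library, for a ratio of 0.953 (0.869 to 1.04). Dnajc9, a histone co-chaperone, reached 98.2 and 120.4 FPKM and was 1.23-fold lower (1.14 to 1.32). Dnajc2, which docks HSP70 on the ribosome, was at 51.0 and 52.3 FPKM, and Dnajc21, which serves in ribosome assembly, at 25.7 and 23.0 FPKM. Neither stood far from equality. Dnajc5, the cysteine string protein of secretory vesicles, was at 45.1 and 33.8 FPKM, and Dnajc13, which acts on endosomes, at 6.68 and 4.75 FPKM. Dnajc24, needed to make the modified residue diphthamide, was at 20.4 and 24.2 FPKM, and the splicing-related Dnajc17 at 11.03 and 10.6 FPKM. Dnajc27 (chromosome 12, 4082583 to 4110606), a small GTPase with a J domain, was the single member at least 1.5-fold lower, at 1.56 and 3.17 FPKM. It was 2.03-fold lower (1.47 to 2.87) on about 56 and 114 fragments.

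The remaining members were low or of uncertain origin. Dnajb13, a protein of sperm flagella, was at 16.8 FPKM in the probucol library and 13.8 FPKM in the untreated library. Its exons share 305 bases, 11.8% of their length, with exons of the opposite-strand gene Ucp2, which stood at 576 and 682 FPKM. Dnajc12, which binds aromatic amino acid hydroxylases, reached 6.05 and 7.95 FPKM and was 1.32-fold lower (1.07 to 1.61). Dnajb7 (chromosome 15, 81406926 to 81408299) reached 1.95 and 0.715 FPKM and was 2.73-fold higher (1.24 to 7.40), on about 23 and 8 fragments, and reached the mean of 1 FPKM through the probucol library. Below the filter, Dnajb8, Dnajc5b and Dnajc5g were listed at 0 in both libraries. Dnajb3 was at 0.620 FPKM with probucol and listed at 0 untreated. Dnajc22 and Dnajc6 were listed at 0 with probucol and at 0.239 and 0.404 FPKM untreated. Dnajc6 is the neuronal form of auxilin, which strips clathrin from vesicles. Genes seen in the untreated library and listed at 0 with probucol were common in general, since 14289 symbols were above 0 with probucol and 16876 untreated.

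**Figure D3:**
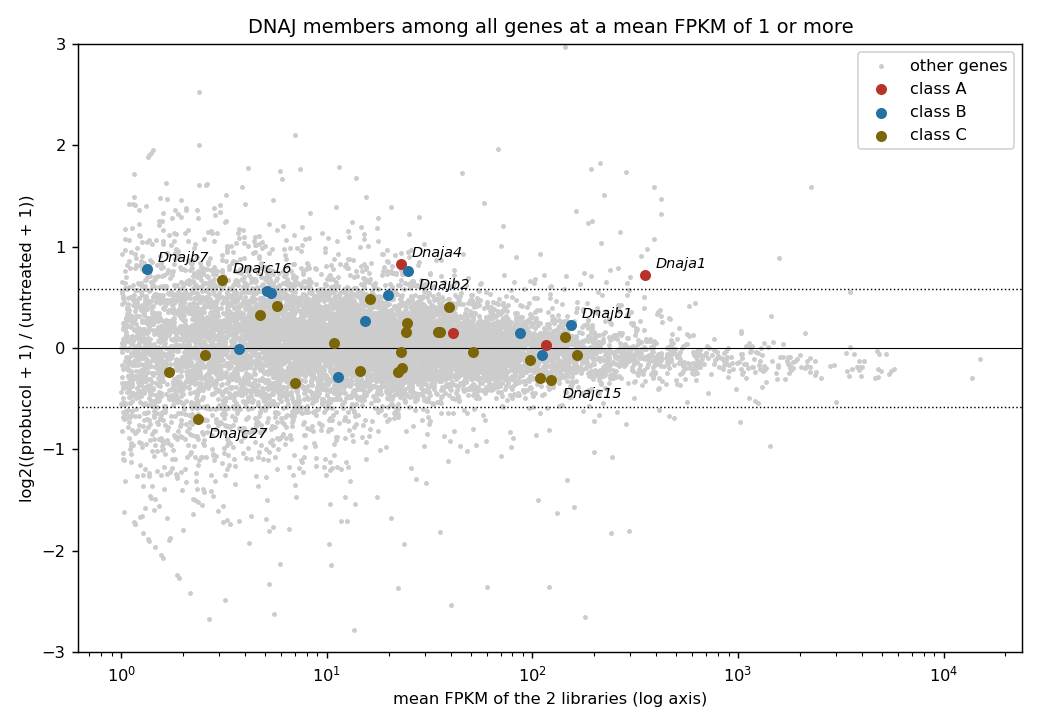
Log2 ratio on FPKM + 1 against mean FPKM (log axis) for all 10663 genes that passed the filter, with the 39 DNAJ members coloured by class and dotted lines at 1.5-fold (1 library per group; 52 genes lie outside the axis limits of -3 and 3). Dnaja1, the member with the highest mean level, lies above the upper line with Dnaja4, Dnajb2, Dnajb7 and Dnajc16, Dnajc27 lies below the lower line, and the other 33 lie between the lines.

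The 6 members listed as heat-responsive (Dnaja1, Dnaja4, Dnajb1, Dnajb2, Dnajb4 and Dnajb5) were all higher with probucol, and 3 passed 1.5-fold. Over all genes, 52.7% were higher and 5.99% past 1.5-fold. The 6 had a median log2 ratio of 0.64 and summed levels of 679 and 450.1 FPKM. The other 33 measured members divided into 17 higher and 16 lower, with a median of 0.03 and sums of 1390.1 and 1402 FPKM. The 4 members listed as targets of the unfolded protein response (Dnajb9, Dnajb11, Dnajc3 and Dnajc10) had 3 higher and 1 lower, 0 past 1.5-fold, and a median of 0.15. The lists were chosen with results of these libraries known, so that the split between them is a description only. Dnajb6, with a ratio of 0.952, was not on the heat-responsive list.

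Most of the HSP70 partners were higher with probucol, with Hspa9 level as given above. Of 12 measured HSP70 and HSP110 genes 10 were higher with probucol (83.3%, against 52.7% of all genes), with a median log2 ratio of 0.41. By at least 1.5-fold, 3 were higher (25%, against 5.99%). Hspa8, which encodes the constitutive HSC70 and is the main cytosolic partner, was at 4193 FPKM in the probucol library and 2856 FPKM in the untreated library, 1.47-fold higher (1.45 to 1.48). The inducible Hspa1a and Hspa1b were far below it, at 3.79 and 1.27 FPKM and at 7.82 and 5.45 FPKM, with fragments possibly split between these near-identical copies. Hspa5, which encodes BiP of the ER, reached 461 and 359 FPKM and was 1.28-fold higher (1.25 to 1.32). Hsph1, an exchange factor of the HSP110 family, had the highest ratio of the list, at 299.8 and 87.4 FPKM, and Hspa2 the lowest, at 2.64 and 4.40 FPKM.

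Exchange factors release ADP from HSP70 and so complete the cycle that the DNAJ proteins start. Of 9 such genes outside the HSP110 family, 4 were higher with probucol and 5 lower, with a median log2 ratio of -0.10. The HSP110 exchange factors, such as Hsph1, were counted with the HSP70 genes above and are not among the 9. Among these 9 the heat-inducible Bag3 stood apart, at 21.5 and 10.2 FPKM, 2.11-fold higher (1.81 to 2.47). Bag4 had the lowest ratio, at 6.27 and 9.79 FPKM, 1.56-fold lower (1.34 to 1.81). Sil1, the exchange factor of the ER, was at 16.8 and 19.1 FPKM. HSP90 and its co-chaperones, which receive clients from HSP70, had 12 of 14 genes higher and 9 past 1.5-fold, at a median of 0.74. Over all genes these shares were 52.7% and 5.99%. Hsp90aa1 was at 369 and 166 FPKM and Hsp90ab1 at 2051 and 1104 FPKM. Ahsa2 had the highest ratio, at 85.4 and 31.1 FPKM, and the mitochondrial Trap1 the lowest, at 52.5 and 55.1 FPKM.

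Regulators and other genes of the stress responses were mixed. Hsf1, which encodes the main heat shock factor, was at 59.9 FPKM in the probucol library and 41.4 FPKM in the untreated library, 1.45-fold higher (1.32 to 1.59), and Hsf2 was at 1.70 and 2.52 FPKM. Of 8 genes listed for the unfolded protein response, not all of them regulators, 3 were higher and 5 lower. Their median log2 ratio was -0.04, and they ran from Herpud1 at 69.1 and 81.4 FPKM to Atf6 at 3.84 and 2.68 FPKM. Of 6 measured immediate early genes, which respond within minutes to stimulation or handling, 2 were higher and 4 lower, with a median of -0.02. Jun had the lowest ratio of these, at 50.0 and 64.0 FPKM, and Egr1 the highest, at 108 and 80.9 FPKM.

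**Figure D4:**
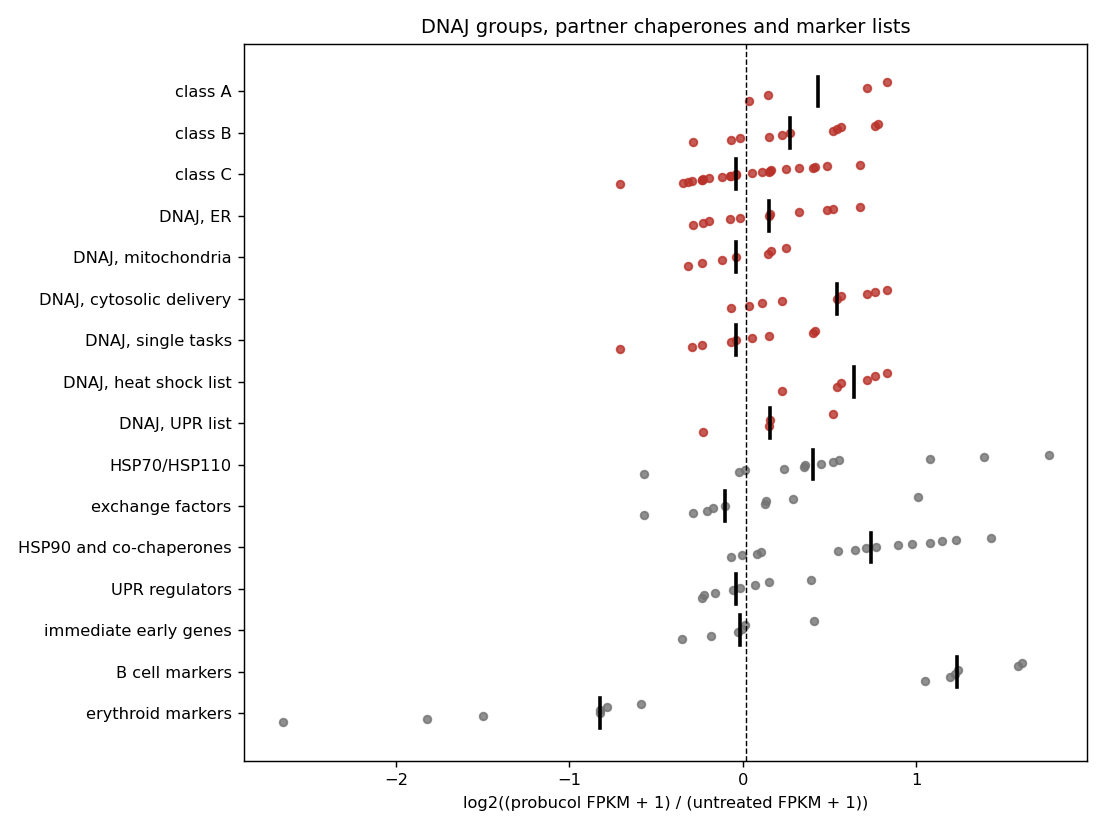
Log2 ratio on FPKM + 1 of each gene that passed the filter (points; red for DNAJ groups, grey for others), with the median of each list as a black bar and the median of all genes, 0.02, as a dashed line (1 library per group). The heat shock and cytosolic DNAJ lists have medians of 0.64 and 0.54 and the mitochondrial list -0.04, while B cell and erythroid markers have medians of 1.23 and -0.82. Some of these markers passed the filter through the library where they were higher, such as Cd22 (4.38 FPKM with probucol and 0.762 untreated) and Slc4a1 (0.577 and 1.79 FPKM). The lists were chosen with results of these libraries known.

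Members with the promoter letters shown above stood on both sides of equality. Promoters in the RefSeq table were found for 37 members, with 50 windows of 250 bases, and 8 members had no entry (Dnajc2, Dnajc5, Dnajc5b, Dnajc11, Dnajc12, Dnajc18, Dnajc22 and Dnajc30). GAANNTTC or TTCNNGAA, which read the same on both strands, stood in 7 of these windows (14%), against 12.8% of all 32851 windows in the table. The 6 members with such a pair divided into 3 higher and 3 lower. Of all 1008 genes that passed the filter and hold a pair, 512 were higher and 496 lower. Higher were Dnaja1, with GAAAATTC beginning 124 bases before its start, Dnaja4, with GAACGTTC and GAACCTTC beginning 90 and 52 bases before, and Dnajb4, with TTCTAGAA beginning 14 bases before. Each of these 3 has another annotated start whose window holds no pair. The starts with a pair lie inside the GENCODE spans of these 3 genes. That of Dnajb4 (chromosome 3, 152178511 to 152210302) lies far inside, and the window at its outer start holds no pair. Lower were Dnajb6, Dnajc10 and Dnajc27, with log2 ratios of -0.07, -0.23 and -0.70. The pair of Dnajc10 begins 182 bases before its start and that of Dnajc27 213 bases before. In Dnajb6 the pairs GAATCTTC and TTCCGGAA overlap and make up GAANNTTCNNGAA, a run of inverted units found on either strand in 0.466% of all windows and in no other member's. Dnajb1, Dnajb2 and Dnajb5, also listed as heat-responsive, held neither pair in the windows searched. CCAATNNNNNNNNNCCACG, searched on both strands, stood in the window of Dnajc3 alone among the members, against 0.113% of all windows. TGACGTG, another element of the unfolded protein response, stood in that of Dnajc25, against 1.65%.

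Overlapping transcription bears on several members, because the labels name no stranded counting and reads of opposite strands then cannot be told apart. In the GENCODE annotation 17 members share exon bases with another gene, 15 of them measured. Dnaja4 shares 1581 bases (44.6% of its exon bases) with the opposite-strand gene Wdr61, which stood at 85.2 FPKM in the probucol library and 88.9 FPKM in the untreated library. Dnaja1 shares 608 bases (10.5%) with Smu1, at 72.9 and 69.4 FPKM. Both neighbours were nearly level between the libraries, but their own values may hold reads of the shared bases. The part of this overlap in the ratios of Dnaja4 and Dnaja1, 1.83 and 1.65, was not tested. Dnajc30 shares 436 bases (26.2%) with a gene listed as Wbscr22, at 52.3 and 49.2 FPKM, and Dnajc14 shares 1114 bases (25.5%) with Ormdl2, at 50.4 and 51.3 FPKM. Of the 24 measured members that share no exon bases, 14 were higher (58.3%, against 52.7% of all genes, overlapping ones included) and 10 lower. Their median log2 ratio was 0.15. Past 1.5-fold higher were 3 (12.5%, against 5.99%): Dnajb2, Dnajc16 and Dnajb7, the last of which passed the filter through the probucol library.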

How the data were processed

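The authors deposited FPKM, 1 value per symbol for 24346 symbols in each of 2 libraries, per the file headers. Per the labels' protocols, RNA from a miRNeasy Micro Kit was turned into full-length cDNA by SMART-Seq HT and into libraries by a Nextera kit. The submitters' processing notes name TopHat2 2.1.1, Bowtie2, Cuffdiff 2.2.1 and mm10; annotation and filters are not given in these sources. Python 3.11.15 with numpy, pandas and scipy 1.17.1 was used. The worth of 1 fragment was fitted to low FPKM of genes with a single transcript of 800 to 10000 bases in the GENCODE M21 basic set, which gave 0.0995 and 0.100 FPKM at 1 kb with probucol and untreated, after 215 bases were subtracted; 74.2% and 75.5% of these values lay within 0.1 of a whole fragment. Fragments per gene used the median transcript length, and 95% intervals of a ratio are exact binomial (Clopper-Pearson). The fit and the intervals were tested on simulated data. All members with a mean of 1 FPKM or more are named; folds are given for the 4 most abundant of each class, those past 1.5-fold and the 2 highest and 2 lowest ratios, and, of partner lists, a fixed set and the ends of each list are named. The members, lists and rules were chosen with earlier results of these data known. Of the marker lists, CD8, macrophage, neutrophil and natural killer genes had median log2 ratios of -0.28, 0.30, 0.20 and -0.73. Alternatives were other pseudocounts, filters, scalings and a length and GC correction. Features of the member proteins were planned and are not analysed here; promoter letters were searched in RefSeq sequence. The planned list of J-domain genes with other symbols is not reported here.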

Additional observations from a re-analysis of the deposited data

How the results depend on the processing

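No paired analysis was possible because each group has 1 library, and no replicate could be left out. Under other pseudocounts and filters, equal sums, centring and the length and GC correction, the family median and the 3 class medians kept their sign. The family median ranged from 0.13 to 0.17 except with no filter, where it was 0.05 over 45 members, 3 of them listed at 0 in both libraries; 53.3% of the members were then higher, against 31.6% of all symbols. By the mean, class C was at 0.01 where its median was -0.04. At least 1.5-fold higher were 5 of 39 members as reported, against 5.99% of all genes. After adding 0.1 to each FPKM there were 7 of 39, against 8.70% of all genes, and after adding 5 there were 3 of 39, against 1.93%. Without a filter there were 6 of 45, against 3.44%. Filters at a mean of 5 and of 10 FPKM left 3 of 32 and 3 of 28, against 4.04% and 3.38% of all genes. At least 1.5-fold lower was 1 as reported, with 0.1 added and without a filter, and 0 in the other 3 of these settings. At least 2-fold higher were 0 members as reported, against 1.62% of all genes. With 0.1 added it was 1 member, Dnajb7, which passed the filter through the probucol library. The share of all genes past 2-fold was not counted at that setting. Without members that share exon bases, a choice made after seeing the data, class A had a median of 0.090 and class B of 0.54. Of the 24 members then left, 14 were higher (58.3%, against 52.7% of all genes) and 3 at least 1.5-fold higher (12.5%, against 5.99%). Dnaja1 and Dnaja4 are among those left out. Of 195 log2 ratios of single members under 5 of the settings, 192 moved by less than their counting interval, the others being Dnajc16 with 5 added and Dnaja1 and Dnajc15 after the length and GC correction, and 0 reversed beyond it. All 78 interval bounds moved by less than the interval when fragments were estimated from the longest transcript. The interval of Dnajc19 then lay below 1, from 0.868 to 0.978, where as reported it included 1. Depth limits the lowest members, such as Dnajb7 on 23 and 8 fragments.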
